A study of Mus musculus with 6 samples.

Results

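Across 6 mouse melanoma tumors, 71 of the 578 cells with more than 1000 detected genes drew 10% or more of their transcript abundance (TPM, which adds up to an equal total for each cell) from genes of the mitochondrial genome, whose symbols start with mt-. These 71 are called high-mt cells here, and the 507 cells of the same tumors under 10% are called the other cells. The deposited values covered 602 cells, of which 24 had at most 1000 genes and were left out, 4 of them with 10% or more. The members were chosen by their measured share of TPM, so the levels of the mt- genes are a description of how the cells were chosen and were not tested. All other values were computed after mt- genes were removed and the rest of each cell was rescaled to a total of 1000000, because TPM is a share and a larger mitochondrial part leaves less for every other gene.

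The tumors came from C57BL/6 mice given subcutaneous injections of 50000 melanoma cells, and all were collected on day 15. The lines were B16-F10 (called B16) and R499, which was established from a B16 tumor that had relapsed after radiation and anti-CTLA4, so both descend from 1 parental line. A pair of mice carried B16 without treatment, a pair carried B16 and received anti-PD1, 200 μg each on day 5, day 8 and day 11 (B16PD1), and a pair carried R499 without treatment. CD45-negative cells were sorted, which removes most immune cells, and full-length SMART-Seq libraries were made on the ICELL8 system. The tumors are named by the prefixes of their cells, which give the condition but not the sample record: B16007, B16008, B16PD1000, B16PD1002, R499015 and R499016.

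The mitochondrial genome is a small circle that encodes subunits of the respiratory chain and ATP synthase, the rRNAs of the mitochondrial ribosome, and tRNAs. Its genes are transcribed from both strands as long precursors and cut apart, while the other subunits of the same complexes are encoded in the nucleus, translated in the cytosol and imported. A high share of mitochondrial transcripts is widely used in single-cell work as a sign of a stressed or damaged cell, and it also follows the mitochondrial content of a cell type.

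The share of TPM from mt- genes ran from 10.1% to 47.6% in the high-mt cells, with a median of 17.9%, and from 0.305% to 9.72% in the other cells, with a median of 3.03%. No gap separated the classes: the highest other cells lay at 9.09%, 9.20%, 9.27% and 9.72%, and the lowest high-mt cells at 10.1%, 10.2%, 10.2% and 10.5%. Of the high-mt cells, 23 were below 15%, 30 were at 20% or more, and 13 were at 30% or more. A further 86 of the other cells fell between 5% and 10%.

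High-mt cells made up 5.21% of the cells of tumor B16007 (5 of 96, exact 95% binomial interval 1.71% to 11.7%) and 9.47% of B16008 (9 of 95, 4.42% to 17.2%). After anti-PD1 the shares were 9.47% in B16PD1000 (9 of 95) and 10.2% in B16PD1002 (10 of 98, 5.00% to 18.0%). In R499 they were 17.3% in R499015 (17 of 98, 10.4% to 26.3%) and 21.9% in R499016 (21 of 96, 14.1% to 31.5%). Both R499 tumors lay above all B16 and B16PD1 tumors. The mean share was 7.34% ± 3.02 (SD, n = 2 tumors) in B16, 9.84% ± 0.516 (n = 2) in B16PD1, and 19.6% ± 3.2 (n = 2) in R499. R499 was 12.3 percentage points above B16, with p = 0.333 in a two-sided exact permutation test, which is the smallest value that 2 tumors against 2 allow. B16PD1 was 2.50 points above B16, with p = 0.667 in the same exact test. Intervals cover counting error only. With the limit at 15%, R499 tumors still held the highest shares, 13.3% and 14.6%, against 4.17% to 7.14% in the other tumors.

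**Figure D1:**
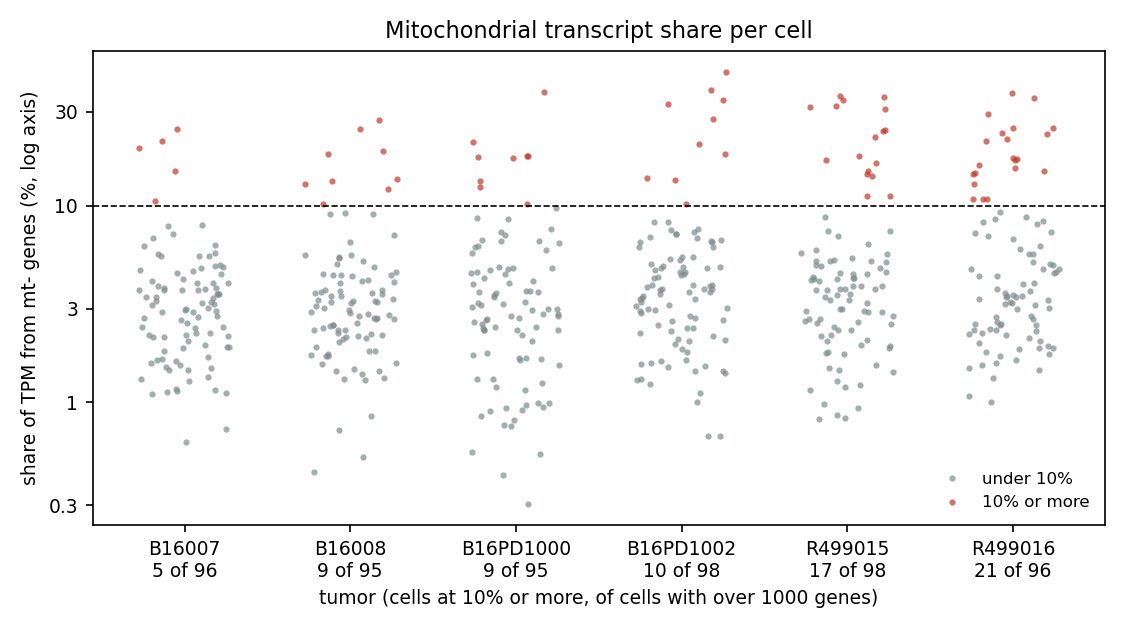
Share of TPM from mt- genes in each of the 578 cells (y axis, percent, log scale) by tumor (x axis), with the 10% limit dashed and the high-mt cells in red. The points run across the limit without a gap, and the R499 tumors hold 17 and 21 high-mt cells against 5 to 10 in each other tumor.

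Of the 37 mt- genes listed, 15 were above 0 in these cells: 13 coding for proteins and both rRNAs. The other 22, all tRNA genes, were listed at 0. mt-Atp6, which encodes the proton channel subunit a of ATP synthase, was the most abundant. Its mean over the high-mt cells of a tumor was 44302 TPM in B16007, 47009 in B16008, 50250 in B16PD1000, 72080 in B16PD1002, 64914 in R499015 and 50630 in R499016, against 6459 to 8238 TPM in the other cells. mt-Nd3, a small subunit of complex I, had means of 5563 to 9796 TPM in high-mt cells and of 687 to 1166 TPM in the other cells. Every tumor thus held higher means of both genes in its high-mt cells, as the limit implies.

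The 15 genes did not scale alike. mt-Nd3 was 8.27-fold higher (SD 1.52, range 6.2 to 10.5 over the 6 tumors) and mt-Atp6 7.34-fold higher (SD 0.92). mt-Atp8, another ATP synthase subunit, was 7.77-fold higher with a wider spread (SD 2.86), and it was above 0 in 66 of 71 high-mt cells but in only 163 of 507 other cells. At the low end, mt-Co1, the catalytic subunit of cytochrome c oxidase, was 3.71-fold higher (SD 0.26) and mt-Nd4l, a complex I subunit, 3.65-fold (SD 0.95). Among all mt- transcripts, mt-Atp6 held 26.9% ± 1.60 (SD, n = 6 tumors) in high-mt cells and 21.8% ± 0.98 in other cells, whereas mt-Co1 held 4.98% ± 0.89 and 7.86% ± 0.74. The shares of mt-Co2 and mt-Co3, also subunits of cytochrome c oxidase, were close in both classes (12.9% against 12.8%, and 14.6% against 14.5%). mt-Nd6, whose gene lies on the strand opposite to the other coding genes, was 6.55-fold higher (SD 1.62), within the range of the rest. The rRNA genes mt-Rnr1 and mt-Rnr2 were 7.24-fold and 6.23-fold higher.

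The coding regions of mt-Atp8 (chrM:7766-7969, + strand, GENCODE M21 on GRCm38) and mt-Atp6 (chrM:7927-8607, + strand) share bases and lie on 1 messenger RNA, so reads from the shared part cannot be assigned to only 1 of them. It is shown because both genes rank among the most raised mt- genes, with the mt-Atp6 start codon and the mt-Atp8 stop codon in capitals, 5′ to 3′, chrM:7927-7969.
mt-Atp8 and mt-Atp6 overlap: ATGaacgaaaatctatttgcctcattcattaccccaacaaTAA

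**Figure D2:**
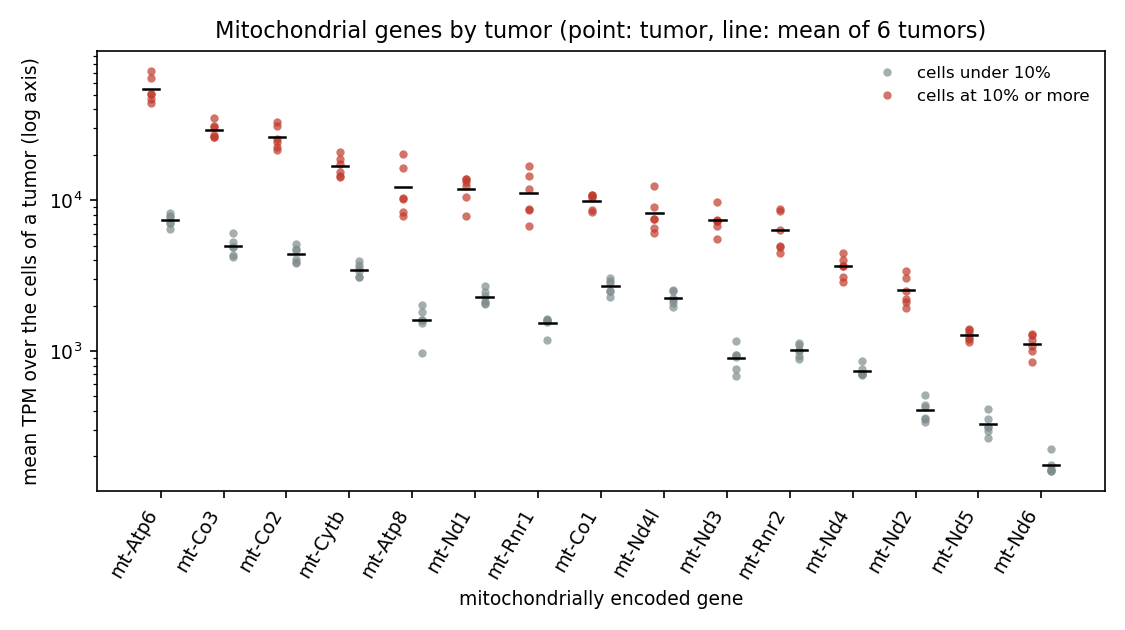
Mean TPM (y axis, log scale) of the 15 mt- genes above 0 (x axis) over the high-mt cells (red) and the other cells (gray) of each tumor, with a line at the mean of 6 tumors. mt-Atp6 is highest in both classes, and the distance between the classes is widest for mt-Nd3 (8.27-fold) and narrowest for mt-Nd4l (3.65-fold).

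Detected genes were compared next. The median number of nuclear genes above 0 per cell was 4158, 4451, 4269, 3727, 3729 and 3815 in the high-mt cells of the tumors in the order above, and 3636, 3375, 3795, 3827, 3128 and 3667 in the other cells. The high-mt cells had more in 5 of 6 tumors, and 100 fewer in B16PD1002. The mean difference was 454 genes (SD 404, n = 6), with p = 0.0625 in a two-sided exact sign-flip permutation test over tumors. Read depth is unknown because TPM holds no counts, so more detected genes stand beside every gene result here, and their part in it was tested only by the matched and covariate analyses given with the counts.

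The cells carried melanocyte lineage markers in both classes. Dct and Tyrp1, enzymes of melanin synthesis, were above 0 in 71 of 71 high-mt and 507 of 507 other cells, and Tyr, the rate-limiting enzyme, in 71 and 497. At least 2 of 22 immune markers were above 0 in 2 of 71 high-mt cells (2.82%) and in 12 of 507 other cells (2.37%). Ptprc, which encodes CD45, was at 0 in every high-mt cell, as were Cd3e and Itgam. The immune genes found in the most high-mt cells had larger shares there. Lyz2 was above 0 in 5 of 71 (7.04%) against 14 of 507 (2.76%), C1qb in 4 (5.63%) against 5 (0.986%), and Csf1r in 3 (4.23%) against 7 (1.38%). These shares were not tested. Other macrophage or myeloid genes of the list, Adgre1, C1qa, Tyrobp and Itgax, were at 0 in the high-mt cells. Of the 22 immune markers, 7 were above 0 in any of the 71 high-mt cells and 14 in any of the 507 other cells. The summed TPM of immune markers was 0 to 47.4 over the high-mt cells of the tumors and 8.94 to 297 over the other cells. The fibroblast genes Col1a1 and Pdgfra, the endothelial genes Pecam1 and Cdh5 and the keratinocyte genes Krt5 and Krt14 were at 0 in the high-mt cells. Of these, Col1a1, Cdh5, Krt5 and Krt14 were also at 0 in all 507 other cells, and Pecam1 was above 0 in 2. Further members of those lists were found in high-mt cells: Vwf in 3 of 71 high-mt and 13 of 507 other cells, Trp63 in 2 and 0, Col3a1 in 1 and 3, and Dcn in 1 and 6. Of the muscle list, Mylpf was above 0 in 6 high-mt cells (8.45%) and 15 other cells (2.96%), and Ckm in 4 and 23. Of 8 adipocyte markers, 4 were above 0 in any high-mt cell and 3 in any other cell. Adipoq and Plin1 were each above 0 in 1 high-mt cell and 0 other cells, and Plin4 in 1 and 1. At least 2 of 7 erythroid markers were above 0 in 1 high-mt cell. At least 2 of 6 Schwann cell markers were above 0 in 28.2% of high-mt and 36.1% of other cells. Without the cells with 2 or more immune markers, 654 genes were higher and 140 lower, against 630 and 141 with them.

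Each gene was compared within tumors on its mean log2(TPM + 1) over cells, with limma, the tumor as a block, and Benjamini-Hochberg adjustment over 11464 genes. Of these, 771 passed an adjusted p of 0.05 (6.73%): 630 were higher in high-mt cells (5.5%) and 141 were lower (1.23%), 2342 (20.4%) had an unadjusted p under 0.05, and 705 of the 771 went one way in all 6 tumors. The balance of directions depended on the scale. When log2 was taken of the mean TPM over the cells of a tumor instead of averaging log2 values, 65 genes were higher and 231 lower, and the median difference of all genes moved from 0.044 to -0.318. When each cell's mean was subtracted, 574 were higher and 462 lower, and without rescaling after mt- genes were removed 401 were higher and 189 lower. With other cells matched to the high-mt cells on the number of detected genes, 285 were higher and 141 lower, and with that number as a covariate 30 were higher and 3 lower.

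The largest mean difference on the log2(TPM + 1) scale was that of Malat1, an abundant long noncoding RNA held in the nucleus. Its median over the high-mt cells was 1041 TPM in B16007, 1919 in B16008, 937 in B16PD1000, 1175 in B16PD1002, 943 in R499015 and 1066 in R499016. In the other cells of the same tumors the medians were 109, 27.7, 75, 11.4, 120 and 143 TPM. The tumor medians of the classes did not overlap: the lowest median in high-mt cells lay above the highest in other cells. Malat1 was named for a large difference with the same direction in all 6 tumors, so this is a description and no further support. Malat1 was above 0 in 71 of 71 high-mt cells and in 378 of 507 other cells. The difference in mean log2(TPM + 1) was 4.88 (SE 0.31, limma adjusted p = 2.33e-06), from 3.51 in R499016 to 6.01 in B16008. It was 4.43 with detected genes matched and 2.22 on the log2 of mean TPM. Neat1, another nuclear long noncoding RNA, had values of 1.14 and 0.51 on the log2(TPM + 1) scale and did not pass.

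Ubb, which encodes ubiquitin as a chain of repeats, was lower in the high-mt cells. It had medians of 4755, 3748, 3458, 2948, 3727 and 4336 TPM in the high-mt cells of the tumors in the order above. The other cells had 29063, 32170, 23025, 21909, 14690 and 20021 TPM. The tumor medians of the classes did not overlap. The difference was -2.48 (SE 0.11, limma adjusted p = 1.09e-07), and it was negative in all 6 tumors. Ubb was named by such a difference, so the common direction and the distance of the medians are a description. Across cells, no high-mt cell was above 6850 TPM of Ubb, whereas 67 of 507 other cells (13.2%) were at or below that level. Against the highest high-mt cell of the same tumor, 5 to 15 other cells per tumor were at or below it. Ubiquitin is also made as a fusion with a ribosomal protein. Rps27a, one such fusion gene, was higher by 0.80 (SE 0.11, limma adjusted p = 0.000967). It was set beside Ubb after its values were seen.

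**Figure D3:**
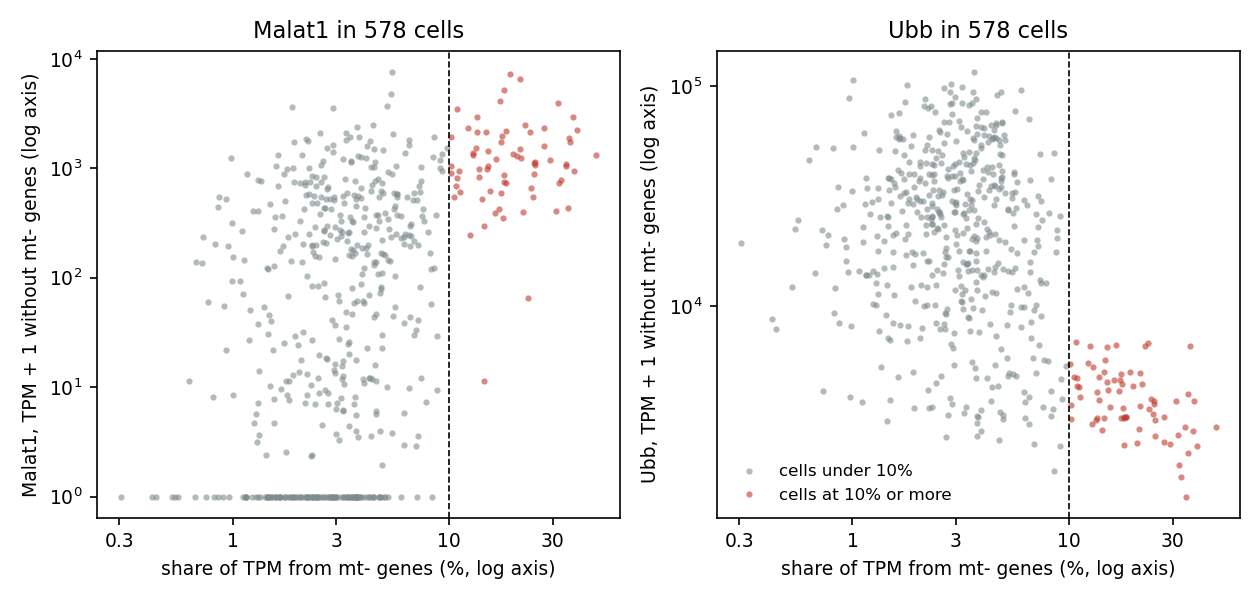
TPM + 1 without mt- genes (y axes, log scale) of Malat1 and Ubb in each of the 578 cells against the share of TPM from mt- genes (x axes, percent, log scale), with the 10% limit dashed. High-mt cells (red) have medians of 937 to 1919 TPM of Malat1 by tumor, and single cells run from 10.4 to 7327 TPM, within the 0 to 7592 TPM of the other cells (gray). For Ubb the high-mt cells reach at most 6850 TPM, a level at or below which 67 other cells also lie.

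Below the limit, the median of Malat1 rose with the mitochondrial share, and that of Ubb was lower only in the range from 5% to 10%. The median of Malat1 was 9.29 TPM in the 127 cells under 2%, 39.9 in the 123 cells from 2% to 3%, 60.7 in the 171 cells from 3% to 5%, and 258 in the 86 cells from 5% to 10%. Above the limit it was 979 TPM from 10% to 15% and between 1106 and 1197 in the 3 higher ranges. The median of Ubb was 22976, 26860 and 28769 TPM in the 3 lowest ranges, 14297 from 5% to 10%, 4336 from 10% to 15%, and 2712 at 30% and over. Both genes therefore had intermediate medians in the cells just below the limit. These cells also had more detected nuclear genes, with a median of 4319 against 2919 under 2% and 4100 from 10% to 15%. In the cells of 5% to 10%, compared with those under 5% of the same tumor, 955 of 11249 genes were higher (8.49%) and 10 were lower (0.0889%). There Malat1 was higher by 2.64 (SE 0.33, limma adjusted p = 0.000237) and Ubb was lower, with a difference of -0.81 (limma adjusted p = 0.000188). Within the cells under 10%, the Spearman correlation of the mitochondrial share with Malat1 was 0.185 to 0.376 by tumor (75 to 91 cells each), and with Ubb -0.301 to 0.0289, over cells of 1 tumor that also differ in detected genes.

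Small noncoding RNAs without a poly(A) tail were among the largest differences. Rn7sk, the 7SK RNA that restrains transcription elongation, had mean log2(TPM + 1) of 6.77, 6.03, 5.74, 6.67, 4.87 and 2.59 in the high-mt cells and of 0.55 to 1.61 in the other cells. It was above 0 in 41 of 71 high-mt cells and 69 of 507 other cells. The difference of 4.28 (SE 0.51, limma adjusted p = 0.000271) was smallest in R499016, at 1.26. The U3 snoRNA genes Rnu3b1, Rnu3b2, Rnu3b3 and Rnu3b4, which act in the cutting of ribosomal RNA precursors, had identical values and cannot be told apart, so they stand for 1 measurement. They were above 0 in 44 of 71 and 92 of 507 cells, with a difference of 4.0 (SE 0.54, limma adjusted p = 0.000636). Of 13 such RNAs tested, 7 were higher and 0 lower, with a median difference of 1.5. On the log2 of mean TPM 2 were higher and 1 lower, with a median of 1.44. The U3 genes enter these counts and medians as separate entries, so their 1 measurement is counted several times. Rn7s1, the RNA of the signal recognition particle, had levels of 9.99 and 9.60 and did not pass. This list, and those of snoRNA host and S100 genes, were grouped after the values were seen.

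Most of the other top genes were short nuclear genes for small proteins. Atp5k, a small subunit of ATP synthase, was at 8.98, 6.67, 7.60, 8.48, 9.18 and 6.61 on the log2(TPM + 1) scale in the high-mt cells and at 3.49 to 5.05 in the other cells, and it was above 0 in 61 of 71 and 245 of 507 cells. The difference was 3.45 (SE 0.32, limma adjusted p = 6.6e-05). Rpl36a, a protein of the large ribosomal subunit, was higher by 3.45, and Cks2, a partner of cyclin-dependent kinases, by 3.43. Lsm5, part of a ring that binds U6 snRNA, differed by 3.26, and Polr2k, a small subunit shared by the nuclear RNA polymerases, by 3.16. Pet100, an assembly factor of cytochrome c oxidase, differed by 3.15, and the mitochondrial ribosome proteins Chchd1 and Mrps18c by 3.12 and 3.01. Lockd, a noncoding RNA made beside Cdkn1b, was higher by 3.58 (SE 0.40, limma adjusted p = 0.000171). For each of these genes the tumor means of the classes did not overlap, and the largest limma adjusted p was 0.00103, for Pet100. All were named for a large difference that passed and went the same way in every tumor. The small adjusted p and the distance of the means were therefore largely set by the choice and are a description. Directions were the same on all scales tried, but on the log2 of mean TPM the differences shrank to between 0.31 for Atp5k and 1.09 for Lockd, and Atp5k, Cks2, Lsm5, Polr2k, Pet100 and Chchd1 no longer passed.

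Among the lower genes, Traf7, a ubiquitin ligase, was at 1.04 to 2.44 in the high-mt cells and 3.77 to 5.44 in the other cells, and it was detected in 25 of 71 against 361 of 507 cells. Its difference was -2.65 (SE 0.42, limma adjusted p = 0.0018). Smpd1, the acid sphingomyelinase of lysosomes, was lower with a difference of -2.13 (SE 0.38, limma adjusted p = 0.00398). Dpf2, a subunit of a BAF chromatin remodeling complex, differed by -1.98, Pigq, which acts in the first step of GPI anchor synthesis, by -1.83, and Dcaf12, a substrate receptor of a cullin ubiquitin ligase, by -1.82. Ndrg3 differed by -1.80. Cdipt, the phosphatidylinositol synthase, differed by -1.79, and Qars, the glutaminyl-tRNA synthetase, by -1.75. All were named from the genes that passed and were lower in 6 of 6 tumors, so that direction was set by the choice. All had differences of the same sign on all scales tried. Unlike Ubb, Traf7 and Smpd1 had differences of 0.11 and 0.45 in the cells of 5% to 10% and did not pass there.

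**Figure D4:**
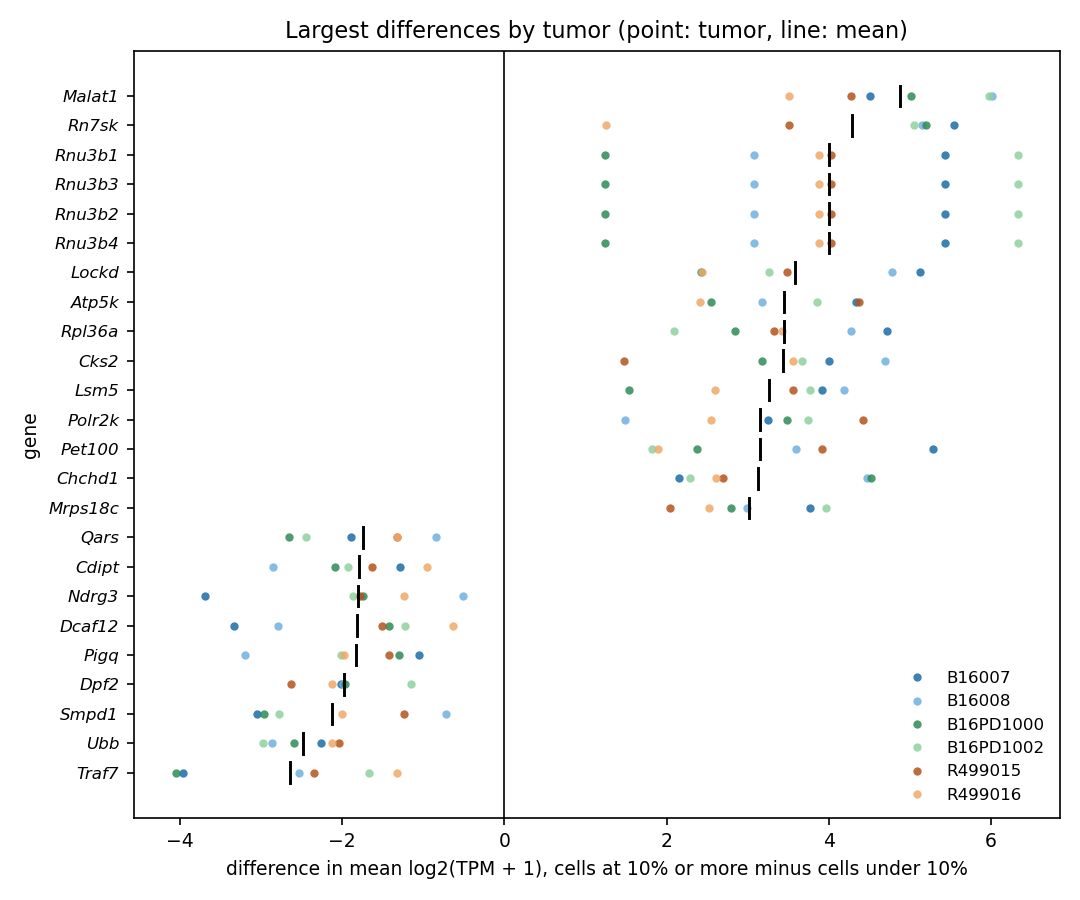
Difference in mean log2(TPM + 1) between the high-mt cells and the other cells of each tumor (x axis; points, 1 per tumor; line, mean) for genes among the 15 largest positive and 10 largest negative differences that passed and went one way (y axis; 1 gene is left out). Malat1 has the largest mean (4.88), and Ubb lies at -2.48.

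Nuclear genes of oxidative phosphorylation were higher in high-mt cells. Of 80 tested, 48 were higher and 0 lower, and their median difference was 0.89, against 0.044 for all genes. By tumor the median ran from 0.75 in B16PD1002 to 1.07 in R499015. Complex I had 25 of 37 higher with a median of 1.18, complex IV 10 of 13 with 0.79, complex III 4 of 9 with 0.62, and ATP synthase 9 of 16 with 0.64. Complex II had 0 of 4 higher and a median of -0.06, too few genes to set apart from the 5.5% of all genes. The complexes were not tested against each other. Within complexes the members differed: Ndufa4, a small subunit, was higher by 1.07 (SE 0.13, limma adjusted p = 0.000268), as was Uqcrq of complex III by 0.87 (SE 0.09, limma adjusted p = 0.000111), which was at 11.5 to 12.3 in high-mt cells and 10.5 to 11.5 in other cells. Atp5b, the catalytic subunit of ATP synthase, was at 11.52 in both classes. The list's median stayed above 0 on every scale tried, with 0.22 and 16 higher and 2 lower on the log2 of mean TPM. With detected genes matched 33 of the 80 were higher, and with them as a covariate 8, both with 0 lower. The list's medians there were 0.57 and 0.95. As a share of nuclear TPM, these genes held 8.89%, 8.59%, 9.16%, 8.67%, 11.9% and 10.5% in high-mt cells and 7.08%, 6.96%, 7.67%, 7.11%, 8.69% and 8.00% in other cells. The share was higher in 6 of 6 tumors, by 2.04 percentage points on average (SD 0.699, n = 6), with p = 0.03125 in a two-sided exact sign-flip permutation test (adjusted p = 0.03125 over 4 shares), the smallest that 6 tumors allow.

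Genes of the mitochondrial ribosome, which translates the mt- messenger RNAs, had 30 of 79 higher and 0 lower, with a median of 1.01. Mrps33, for example, was at 7.55 to 9.39 in high-mt cells and 5.88 to 7.31 in the other cells, a difference of 1.78 (SE 0.23, limma adjusted p = 0.000527). On the log2 of mean TPM the list's median was 0.07, where that of all genes was -0.318, and 2 were higher and 1 lower. With detected genes matched 12 were higher and 1 lower, and with them as a covariate 3 and 0. The list's medians there were 0.60 and 0.88. Of 33 genes of import and quality control, 8 were higher and 0 lower. Timm8b, a chaperone of the space between the membranes, differed by 2.54 (SE 0.25, limma adjusted p = 8.58e-05), and Hspe1, the partner of the matrix chaperonin, by 1.15 (SE 0.15, limma adjusted p = 0.000425). The list's median of 0.32 became -0.08 on the log2 of mean TPM, against -0.318 for all genes. Of 25 genes that maintain mitochondrial DNA and handle its RNA, 1 was higher (4%, near the 5.5% of all genes): Slirp, which with Lrpprc stabilizes mt- messenger RNAs. Slirp was at 10.94, 9.89, 10.69, 10.41, 10.77 and 10.53 in high-mt cells and at 7.24 to 8.89 in other cells, and the difference was 2.51 (SE 0.20, limma adjusted p = 1.54e-05). Tufm, the mitochondrial elongation factor, was at 4.59 and 5.25 and did not pass.

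Regulators of mitochondrial biogenesis had 0 of 9 higher, too few genes to set apart from the 5.5% of all genes. Ppargc1a, the coactivator PGC-1α, was at 3.88 and 4.16 and did not pass, and Pprc1, a related coactivator, was lower with a difference of -0.45 (SE 0.10, limma adjusted p = 0.0155), from a mean of 0.51 in the other cells. Of 27 genes of the TCA cycle and fatty acid oxidation, 2 were higher (Etfb and Echs1) and 0 lower, with a median of -0.03. The 2 are 7.41% of the list, near the 5.5% of all genes. Etfb had a difference of 0.94, and of -0.03 on the log2 of mean TPM, where the median of all genes was -0.318. The glycolysis and hypoxia list had 3 of 25 higher (12%) and 3 lower, against 5.5% and 1.23% of all genes. The lower genes were the glycolytic enzymes Aldoa, with a difference of -0.39 (SE 0.08, limma adjusted p = 0.00717), Eno1 with -0.51 (SE 0.11, limma adjusted p = 0.0109), and Gpi1 with -0.71 (SE 0.18, limma adjusted p = 0.0305). The higher genes were Ero1l, Bnip3 and Hk2. Ero1l and Bnip3 had differences of 1.12 and 0.54, which turned to -0.04 and -0.14 on the log2 of mean TPM.

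Cytosolic ribosomal protein genes had 52 of 84 higher and 0 lower, with a median of 0.57. The median stayed above 0 on every scale tried (0.21 on the log2 of mean TPM). With detected genes matched it was 0.48, and with them as a covariate 0.56. The calls were fewer: 16 higher and 1 lower on the log2 of mean TPM, 26 and 3 without rescaling, 33 and 0 with detected genes matched, and 2 and 0 with them as a covariate. They are among the most abundant messages: Rps18 was at 12.8 and 12.2, a difference of 0.59 (SE 0.08, limma adjusted p = 0.000489), while Rpl32 was at 13.1 and 13.3 and did not pass. Their share of nuclear TPM was 19.1% ± 1.12 (SD, n = 6) in high-mt cells and 16.6% ± 1.03 in other cells, higher in 6 of 6 tumors by 2.51 points (SD 0.973), with p = 0.03125 in the exact sign-flip permutation test (adjusted p = 0.03125). Pseudogenes of these genes had 30 of 126 higher and 0 lower, but on the log2 of mean TPM 0 were higher and 13 lower. Their median moved from 0.54 to -0.30, and that of all genes from 0.044 to -0.318. Pseudogenes share reads with their parent genes, so those values are uncertain. In all, 52 of 315 pseudogenes tested were higher and 0 lower. The snoRNA host genes, whose introns carry snoRNAs, had 8 of 16 higher and 0 lower, with Gas5 higher by 1.63 (SE 0.17, limma adjusted p = 0.00013). Of the 16, 4 were higher with detected genes matched, and 0 with them as a covariate or on the log2 of mean TPM, where 7 and 6 had an unadjusted p under 0.05 in limma. The list's median of 1.23 became 0.95 when matched, 1.21 with the covariate and 0.29 on the log2 of mean TPM.

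The 50 most abundant nuclear genes of a cell held 27.0% ± 1.01 (SD, n = 6) of its nuclear TPM in high-mt cells and 30.1% ± 0.189 in other cells. The share was lower in 6 of 6 tumors, by -3.05 points (SD 0.970), with p = 0.03125 in the exact sign-flip permutation test (adjusted p = 0.03125). Ubb alone had a median of 23684 TPM over all other cells and of 3702 TPM over all high-mt cells. Its part in the lower share was not tested. Nuclear-retained RNAs, which are mostly Malat1, held 0.157% ± 0.0520 and 0.0336% ± 0.00874, a difference of 0.123 points in the same direction in 6 of 6 tumors, with the same exact p of 0.03125. That share largely restates the Malat1 difference and is no further support for it.

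Cell cycle genes were also partly higher. The S phase list had 5 of 35 higher and 0 lower, and the G2/M list 9 of 40 higher and 0 lower, with medians of 0.59 and 0.74. Tyms, the thymidylate synthase, was at 6.09 to 8.67 in high-mt cells and 3.33 to 5.51 in other cells, a difference of 2.71 (SE 0.44, limma adjusted p = 0.0023). Cks1b, a partner of cyclin-dependent kinases, was higher by 2.18 (SE 0.23, limma adjusted p = 0.00013), and Cdk1, the mitotic kinase, by 2.03 (SE 0.35, limma adjusted p = 0.00311). On the log2 of mean TPM the median of the S phase list was -0.06 with 0 higher, and that of the G2/M list was 0.10 with 1 higher. The median of all genes on that scale was -0.318. With detected genes matched 3 and 8 were higher, and with them as a covariate 0 of either list passed in limma (8 and 10 had an unadjusted p under 0.05). The medians of the S phase and G2/M lists were 0.47 and 0.58 when matched, and 0.15 and 0.60 with the covariate.

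The lists of stress and death programs hold 10 to 30 tested genes each, so that the 5.5% of all genes called higher would come to few calls in any of them. The ATF4 stress response, which is induced when mitochondrial function fails, had 1 of 18 higher (5.56%), the transcription factor Ddit3, with a difference of 1.66 (SE 0.28, limma adjusted p = 0.00274), while Atf4 itself was at 8.19 and 8.58 and did not pass. The list's median was -0.04. Of 15 genes of the unfolded protein response, 2 (13.3%), Hsp90b1 and Sdf2l1, chaperone factors of the endoplasmic reticulum, were higher, by 0.95 and 1.91. Of 10 heat shock genes, Hsf1, the transcription factor of the response, was lower, with a difference of -1.49 (SE 0.33, limma adjusted p = 0.0135). None of 17 immediate early genes, 19 apoptosis genes, 16 p53 targets and 30 interferon-stimulated genes passed in limma. At an unadjusted p under 0.05 there were 2, 2, 2 and 3 such genes, in the same order. Their medians were 0.11, 0.05, 0.15 and 0.08, and on the log2 of mean TPM they were -0.49, -0.43, -0.36 and -0.54, where the median of all genes was -0.318. The apoptosis effector gene Bax was at 5.94 and 4.90, and Cdkn1a, a p53 target that stops the cell cycle, was at 5.68 and 4.74.

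In the melanocyte lineage list, Mlana, a melanosome protein, was higher by 0.41 (SE 0.10, limma adjusted p = 0.0333) and Pmel, which forms the fibrils of the melanosome, was lower with a difference of -0.48 (SE 0.12, limma adjusted p = 0.0262). Each went its way in 5 of 6 tumors, and the other 14 genes tested did not pass. The 1 higher gene is 6.25% of the 16 tested, near the 5.5% of all genes, and 1.23% of all genes were lower. With each cell's mean subtracted 0 of the 16 were higher and 1 lower, on the log2 of mean TPM 0 and 3, and without rescaling 0 and 2. With detected genes matched 0 were higher and 1 lower, and with them as a covariate 0 and 0. The list's median of 0.14 became -0.21 on the log2 of mean TPM and -0.07 without rescaling, where the medians of all genes were -0.318 and -0.003. B2m, the light chain of MHC class I, was higher by 0.64 (SE 0.12, limma adjusted p = 0.00444), the 1 call among 14 presentation genes (7.14%, near the 5.5% of all genes). It had a difference of 0.13 on the log2 of mean TPM, where 0 of the 14 passed, as without rescaling and with the covariate (in limma 2, 4 and 4 had an unadjusted p under 0.05). The S100 genes S100a11, S100a10 and S100a1, which encode calcium-binding proteins, were higher by 2.94, 2.76 and 1.83, 3 of 8 tested. On the log2 of mean TPM their differences were 0.38, 0.37 and 0.26, and 0 of the 8 passed there or with detected genes as a covariate, where 1 and 4 had an unadjusted p under 0.05 in limma. With detected genes matched, 3 of 8 were higher. The list's median of 0.92 became 0.73 when matched and 1.05 with the covariate.

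**Figure D5:**
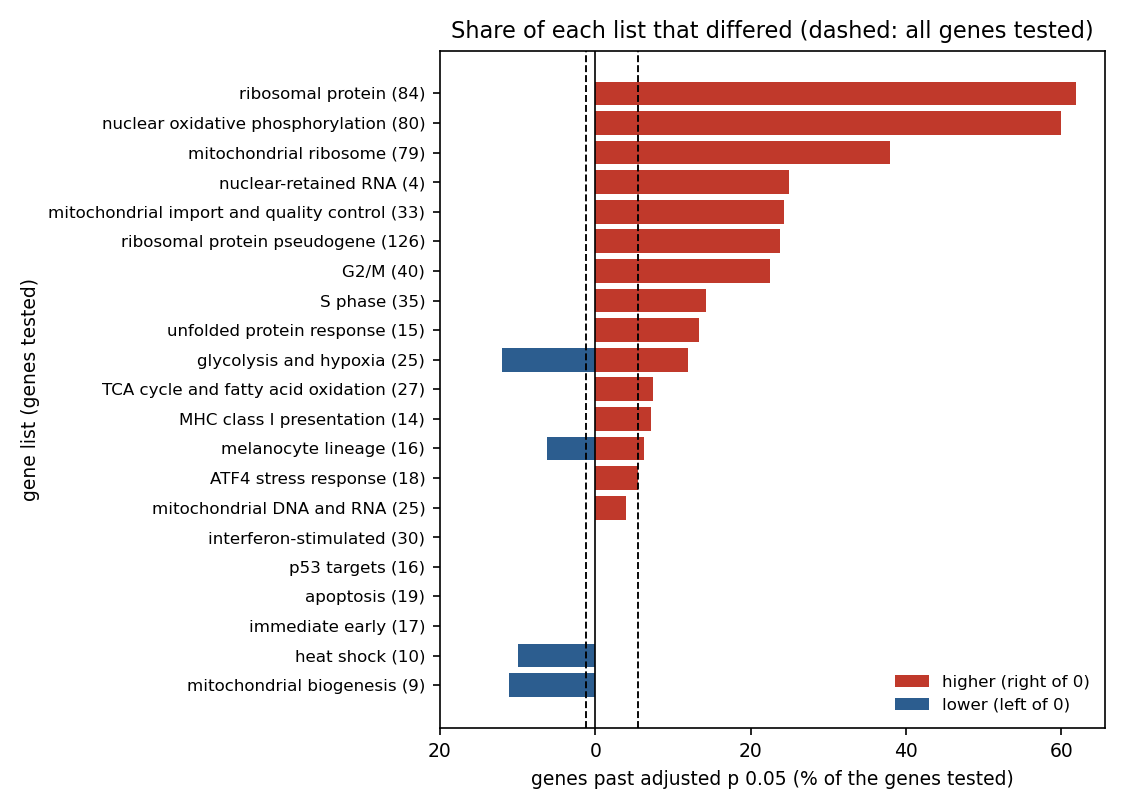
Percent of the tested genes of each list (y axis, number tested in parentheses) that passed an adjusted p of 0.05, with higher genes to the right and lower genes to the left (x axis). The dashed lines mark the shares among all genes tested, 5.5% higher and 1.23% lower. Ribosomal protein (52 of 84) and nuclear oxidative phosphorylation genes (48 of 80) extend farthest, and 0 of 19 apoptosis genes passed.

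The higher genes were short. Taking the longest transcript of each gene in GENCODE M21, the median was 3358 bases over the genes tested, 1193 over the higher genes and 3169 over the lower genes. Of 156 genes under 500 bases, 29.5% were higher and 0 lower, and of 553 genes from 500 up to 1000 bases, 37.1% and 0. Of 6591 genes of 3000 bases and over, 1.78% were higher and 1.24% lower. Among genes with a mean above 6 on the log2(TPM + 1) scale, 69.8% of 159 genes from 500 up to 1000 bases and 22.7% of 207 genes of 3000 bases and over were higher. Many genes of the ribosomal, mitochondrial ribosome and respiratory chain lists are short, and the part of length in those results was not tested.

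Between conditions, no gene passed in either form of the comparison. The difference between high-mt and other cells was not called different between R499 and B16 or between B16PD1 and B16 by limma for any of 11464 genes (0 each), and 745 and 926 genes had an unadjusted p under 0.05 (6.5% and 8.08%). Within the high-mt cells alone, 0 genes passed for R499 against B16 and 0 for B16PD1 against B16, and 876 and 853 had an unadjusted p under 0.05 (7.64% and 7.44%). The smallest p-value for the difference by condition in R499 belonged to Hscb, a cochaperone for iron-sulfur clusters. Its high-mt cells were 3.08 and 3.44 above the other cells in B16007 and B16008, and differed by 0.06 and -0.48 in the B16PD1 tumors and by -0.11 and 0.12 in the R499 tumors. Both B16 tumors stood apart, but with a limma adjusted p of 0.71 for R499 against B16 and 0.50 for B16PD1 against B16. Hmgb3, a chromatin protein, differed by -1.08 and -2.01 in the B16 tumors and by 1.45 and 1.69 in the B16PD1 tumors, with a limma adjusted p of 0.50. With 5 to 10 high-mt cells in each B16 and B16PD1 tumor, these means rest on few cells. Kalrn, a guanine nucleotide exchange factor, was above 0 in 19 of the 38 high-mt cells and 76 of the 156 other cells of R499, and in 1 of 33 and 4 of 351 cells of the other tumors.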

How the data were processed

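Single-cell RNA-seq of 6 tumors was analysed. The authors aligned reads with STAR (2-pass) and quantified them with RSEM, both at default settings with versions not given in the sources used here, and deposited TPM (transcripts per 1000000) for 25215 genes in 602 cells, unfiltered (build mm10 per the labels). The study's own filter left out cells at or above the 10% mitochondrial limit. No column was left unused (0). Numbers of cells per tumor set the precision, and no 2 cells held identical values.

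For each tumor and class (12 profiles), log2(TPM + 1) was averaged over cells, after mt- genes were removed and the rest rescaled. Genes above 0 in more than 5 cells were fitted with limma 3.58.1 (R 4.3.3; trend, two-sided, Benjamini-Hochberg, threshold 0.05), with tumor as a block because both classes came from the same tumor. Each tumor's profiles deviated together (r = 0.112 to 0.283 between its classes). Gene differences are on the log2(TPM + 1) scale, where the added 1 compresses low values. As means over cells they also depend on the share of cells with a gene above 0. They can therefore exceed the difference in log2 of mean TPM, as for Atp5k (3.45 against 0.31). Replicates are separate mice. Doublets were not called; 3 high-mt cells had over 5000 nuclear genes, and no chip position occurred in cell names of more than 1 tumor (0). Single values used exact permutation over tumors. Matching weighted the other cells of each tumor so that their numbers of detected genes fell into the quartile bins of high-mt cells in the same shares as its high-mt cells. Other steps used matplotlib 3.10.9, scipy 1.17.1, pandas 2.3.3 and numpy 2.4.6 under Python 3.11.15, and scripts were tested on simulated data.

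The cells, lists and tests were chosen with earlier results of these data known. Named genes were mt- genes; the 15 largest positive and 10 largest negative differences that passed and went one way in all tumors; up to 5 pseudogenes; for each condition contrast the 3 smallest p-values; and of each list the 3 most abundant genes and up to 5 that passed; some of these are not reported here. Hk2 and S100 genes beyond this rule, and the grouping by complex, were chosen after their values were seen. Alternatives were pseudocounts of 0.1 and 10, gene filters (none, or over 10% of cells), log2 of mean TPM, no trend, weights, cell mean subtracted, limits of 8% and 15%, other cells under 5%, over 2000 genes, protein-coding mt genes only, detected genes matched or as covariate, no block, and leaving out each tumor. Added after seeing the data were runs without immune-marker cells and without rescaling, the 5% to 10% range, length ranges, and the lists of RNAs without a poly(A) tail, histones, snoRNA hosts and S100 genes. The histone list had 4 of 31 higher and 0 lower.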

Additional observations from a re-analysis of the deposited data

Results flagged for a closer look

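In tumor B16PD1000 the share of nuclear TPM held by ribosomal protein genes was 0.638 percentage points higher in high-mt cells than in other cells, against 2.36 to 3.30 points in the other 5 tumors. The tumor stood apart from the rest by Dixon's criterion (ratio 0.647, critical value 0.625 for 6 tumors), 1 of 31 values so examined, and chance alone sets apart about 1 in 20. Without B16PD1000 the mean difference was 2.88 points.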

How the results depend on the processing

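The count of 771 genes between high-mt and other cells moved by more than 1.5 times in 3 alternatives: 296 on the log2 of mean TPM (145 shared with the 771), 426 with detected genes matched (388 shared), and 33 with detected genes as a covariate (all 33 shared). The cause was not tested. In the other alternatives it was 552 to 1036. Without the tumor block, and so without the pairing of classes, 786 genes passed (599 higher, 187 lower), and a block across conditions could not be made because the column names carry no replicate number. Leaving out each tumor gave 538 to 669 genes, and the 25 genes named for the largest differences passed in all 6 of these fits. None of the 25 changed sign in any alternative. With the covariate 9 passed, on the log2 of mean TPM 10, and in every alternative 3, among them Malat1 and Ubb, with limma adjusted p up to 0.0282 and 0.00365. The 25, and the 9 with the covariate, count the U3 genes Rnu3b1 to Rnu3b4 separately, although their values are identical.

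Without a gene filter, 27 genes passed within high-mt cells for R499 against B16 and 3 for B16PD1 against B16, against 0 and 0. Leaving out each tumor gave 0 for both, and also 0 for both contrasts of the within-tumor difference. With the limit at 8%, the ribosomal protein difference was 2.12 points (exact p = 0.0625). Leaving out a tumor allows no exact p under 0.0625. The differences were then 2.35 to 2.88 points for ribosomal protein, 1.80 to 2.15 for nuclear oxidative phosphorylation, 0.109 to 0.134 for nuclear-retained RNA, and -3.25 to -2.80 for the 50 most abundant genes, 329 to 564 detected genes, and, for the share of high-mt cells, 10.01 to 14.53 points for R499 against B16 and 0.365 to 4.63 for B16PD1 against B16. Removal of nuclear copies of mitochondrial sequence gave no value, because no listed gene matched (0), and 2 alternatives that change no high-mt cell (other cells under 5%, detected genes matched) gave none within high-mt cells. The precision of each tumor's mean rests on 5 to 21 high-mt cells, and read depth is unknown.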
